A study of Homo sapiens with 20 samples.

Results

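The genes described here are THBS1, which encodes thrombospondin-1, and LOXL3, which encodes lysyl oxidase-like 3. They were measured on 20 Affymetrix arrays of U-87MG, a long-established glioblastoma cell line of human origin. The genes were taken as every probe set whose only gene symbol is THBS1 or LOXL3. This gave 2 probe sets of 12770, 1 for each gene, and 2 genes of the 11282 that could be named and tested. Cells were treated for 24 h with 40 µM of the keto acid I3P (indole-3-pyruvic acid), of HPP, which is hydroxyphenylpyruvic acid, or of PP, phenylpyruvic acid, or with DMSO, the solvent, which all 4 groups contained at up to 0.2% of the medium. Each group held 5 arrays that the labels call biological replicates 1 to 5. The labels count the compounds among established or presumed ligands of AHR, the aryl hydrocarbon receptor, which regulates genes when small aromatic molecules bind it. All arrays come from the same cell line, so other glioblastoma cells are not represented.

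Thrombospondin-1 is a large secreted glycoprotein of the extracellular matrix. It binds the receptors CD47 and CD36, integrins and proteoglycans, can release TGF-beta from its latent complex, and is best known as an inhibitor of blood vessel growth. In tumours its level is set by many inputs, among them TGF-beta, p53, MYC and the mechanosensitive factors YAP and TAZ. Lysyl oxidases are secreted copper enzymes that oxidise lysine side chains of collagen and elastin, the step that lets these fibres crosslink. LOXL3 is a member of the family with scavenger receptor domains, and it has also been described as a partner of the transcription factor SNAI1.

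The promoter sequences are shown because AHR with its partner ARNT binds sites that contain the core GCGTG. The RefSeq promoter table (GRCh38.p14) held 1 start site for THBS1 and 2 for LOXL3, named here distal and proximal by their order along the gene. The THBS1 window is chr15:39580829-39581078 on the plus strand. RefSeq places the LOXL3 gene at chr2:74532258-74555702. The LOXL3 windows are chr2:74553943-74554192 and chr2:74549527-74549776 on the minus strand, both inside the gene, so the bases before its outermost end are not shown. Each holds the 250 bases before the start site, 5′ to 3′ along the gene, and capitals mark GCGTG and GGAATG, the core bound by the TEAD partners of YAP, on either strand.
THBS1 promoter: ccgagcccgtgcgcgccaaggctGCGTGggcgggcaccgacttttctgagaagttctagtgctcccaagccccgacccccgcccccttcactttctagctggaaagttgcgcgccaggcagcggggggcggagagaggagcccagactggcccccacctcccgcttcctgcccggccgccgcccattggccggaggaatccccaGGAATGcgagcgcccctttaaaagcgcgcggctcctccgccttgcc
LOXL3 distal promoter: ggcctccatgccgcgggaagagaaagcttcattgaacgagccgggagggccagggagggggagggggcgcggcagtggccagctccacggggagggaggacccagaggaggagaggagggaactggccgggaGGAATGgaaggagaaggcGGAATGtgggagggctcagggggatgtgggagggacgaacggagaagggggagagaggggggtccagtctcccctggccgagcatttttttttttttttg
LOXL3 proximal promoter: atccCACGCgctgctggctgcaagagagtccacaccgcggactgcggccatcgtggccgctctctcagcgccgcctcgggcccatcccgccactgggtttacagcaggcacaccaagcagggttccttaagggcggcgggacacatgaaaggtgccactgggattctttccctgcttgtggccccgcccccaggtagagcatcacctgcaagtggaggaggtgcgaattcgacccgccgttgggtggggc
GCGTG occurred once in the THBS1 window (at position -227 from the start site), once in the proximal LOXL3 window and 0 times in the distal one. It occurs in 32.2% of 35116 such windows, so a match is common. GGAATG occurred once in the THBS1 window and 2 times in the distal LOXL3 window, against 11.9% of all windows with a match. The AP-1 site TGANTCA had 0 matches in these windows and occurs in 6.57% of all windows. The E-box (CACGTG) also had 0 matches, with 6.345% of all windows holding it. So did the TATA box, in its form TATAAA, which 10.7% of all windows hold. No array value bears on which start site the cells used.

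The genes were chosen by their difference between the I3P and DMSO arrays, as tested with limma at an adjusted p under 0.05. LOXL3 passed both in the plain fit of the 4 group means and when replicate number was added as a block, THBS1 only with this block. Of all genes tested, 0.0798% were called higher with I3P without the block and 0.488% with it. The comparison of I3P with DMSO therefore chose the genes, and its values are given as a description with no test. The same holds for the other comparisons that use the I3P or DMSO arrays. The means of HPP and PP did not enter that difference. Their arrays did enter the error and the block of the fits that chose the genes, so tests on them are not independent of the choice.

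THBS1 was high with I3P, intermediate with HPP and low with PP and DMSO. In log2 units of RMA (robust multi-array average, the method that made the values), the I3P arrays of replicates 1 to 5 were at 10.01, 10.21, 8.72, 10.01 and 10.17. The HPP arrays were at 9.38, 9.41, 8.50, 9.21 and 9.05, the PP arrays at 8.75, 8.95, 7.65, 8.86 and 8.87, and the DMSO arrays at 8.80, 8.83, 7.63, 8.94 and 8.98. Replicate 3 was the lowest array of every group. Because of it, the I3P group overlapped the other 3 groups, and without it the remaining I3P arrays lay above all HPP, PP and DMSO arrays. Group means were 9.82 ± 0.624 with I3P, 9.11 ± 0.373 with HPP, 8.62 ± 0.548 with PP and 8.63 ± 0.567 with DMSO (log2, SD, n = 5 each). In this order, no neighbouring means were further apart than the sum of their SDs. The number of arrays limits the precision of these values.

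Within each replicate number the picture was regular. THBS1 was higher with I3P than with DMSO by 1.21, 1.38, 1.09, 1.07 and 1.19 in replicates 1 to 5. The mean difference was 1.19 ± 0.124 (log2, SD over 5 same-number pairs), a 2.28-fold higher level. Its standard error was 0.307 in the limma fit without the block and 0.0944 with it. The difference in replicate 3 was within the range of the others, although the DMSO level there was lower than in the other DMSO arrays by 1.26. With I3P the difference from PP was also even, at 1.21 ± 0.0931, and higher in 5 of 5 pairs. I3P minus HPP was 0.71 ± 0.327, from 0.22 in replicate 3 to 1.12 in replicate 5.

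**Figure D1:**
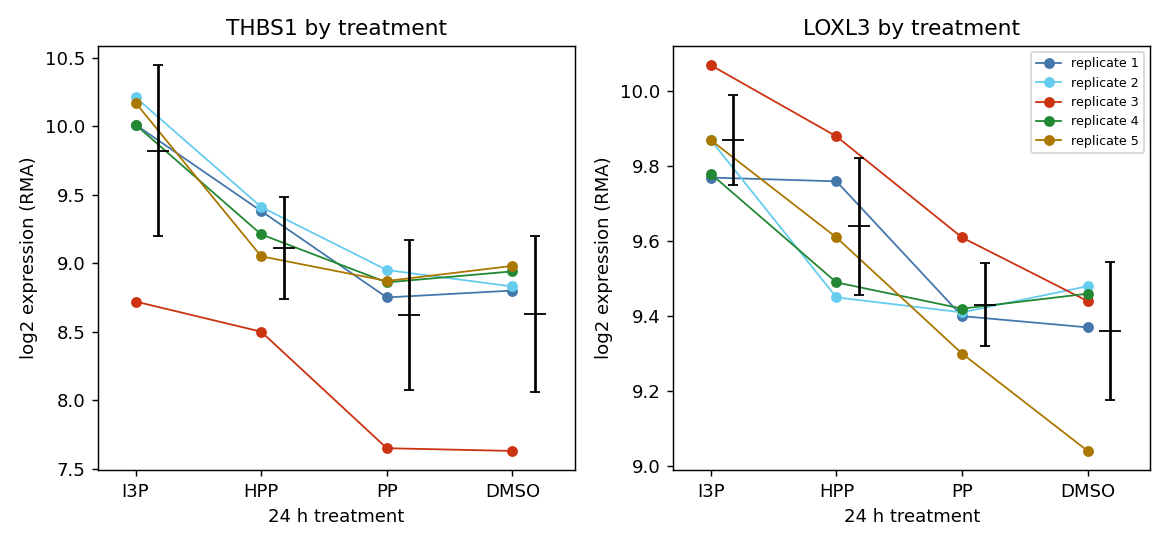
log2 expression (RMA) of THBS1 (left) and LOXL3 (right) on all 20 arrays by 24 h treatment; coloured points joined by lines are arrays of the same replicate number, black marks the group mean with SD (n = 5). The THBS1 line of replicate 3 lies below the others, at 7.63 to 8.72, and the lines of both genes descend from I3P over HPP to PP.

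With HPP the level of THBS1 was higher than with DMSO in 5 of 5 pairs, but by unequal amounts. The differences were 0.59, 0.58, 0.87, 0.27 and 0.07 in replicates 1 to 5, with a mean of 0.48 ± 0.311 (log2, SD over pairs), a 1.39-fold higher level. Replicate 3 had the largest of these and replicate 5 the smallest. With PP the differences from DMSO were -0.04, 0.12, 0.02, -0.08 and -0.11, with a mean of -0.02 ± 0.0926, and 2 of 5 were above 0. These differences share the DMSO arrays with the comparison that chose the gene.

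LOXL3 followed the same order over a narrower range. The I3P arrays of replicates 1 to 5 were at 9.77, 9.87, 10.07, 9.78 and 9.87. The HPP arrays were at 9.76, 9.45, 9.88, 9.49 and 9.61, the PP arrays at 9.40, 9.41, 9.61, 9.42 and 9.30, and the DMSO arrays at 9.37, 9.48, 9.44, 9.46 and 9.04. Every I3P array was above every PP array and every DMSO array, and the I3P and HPP arrays overlapped. HPP overlapped DMSO through HPP replicate 2, and PP overlapped DMSO widely. Group means were 9.87 ± 0.12 with I3P, 9.64 ± 0.183 with HPP, 9.43 ± 0.111 with PP and 9.36 ± 0.184 with DMSO (log2, SD, n = 5 each). Here too no neighbouring means were further apart than the sum of their SDs.

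I3P minus DMSO for LOXL3 was 0.51 ± 0.211 (log2, SD over pairs), a 1.43-fold higher level with a standard error of 0.0978 without the block and 0.0781 with it. It was above 0 in 5 of 5 pairs, from 0.33 in replicate 4 to 0.83 in replicate 5, whose DMSO array was the lowest for this gene. I3P minus PP was 0.44 ± 0.0814 and I3P minus HPP was 0.24 ± 0.151, each above 0 in 5 of 5 pairs, with only 0.01 between I3P and HPP in replicate 1. HPP minus DMSO was 0.28 ± 0.266, with 4 of 5 pairs above 0. It was 0.39, 0.44 and 0.57 in replicates 1, 3 and 5 but -0.03 and 0.03 in replicates 2 and 4. PP minus DMSO was 0.07 ± 0.142, with 3 of 5 pairs above 0.

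**Figure D2:**
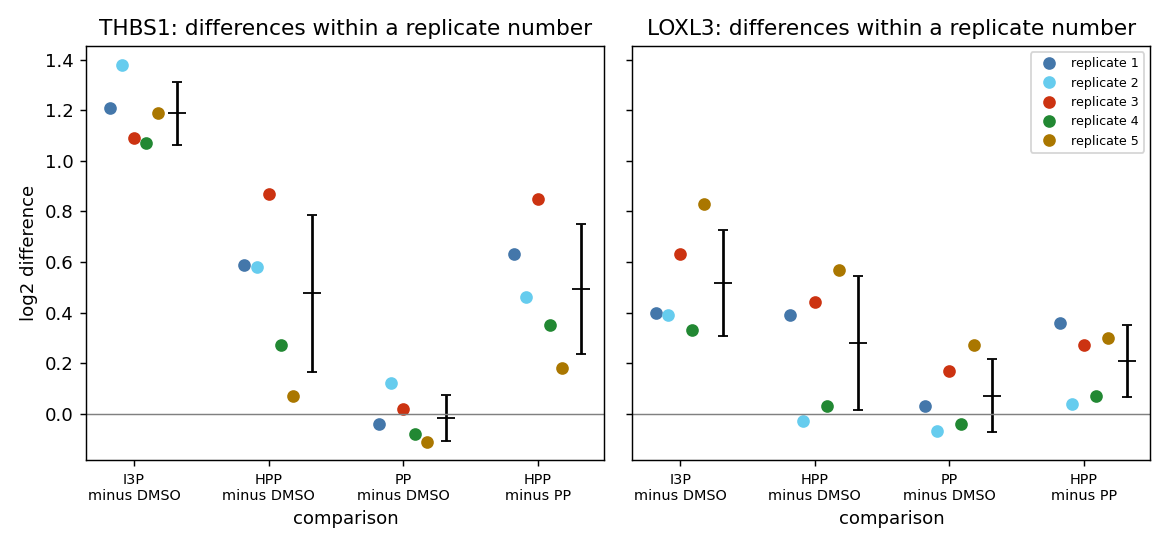
log2 differences of THBS1 (left) and LOXL3 (right) between arrays of the same replicate number (coloured points) for 4 comparisons; black marks the mean with SD over the 5 pairs. For THBS1 the I3P minus DMSO points lie between 1.07 and 1.38, and the HPP minus PP points of both genes all lie above 0.

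HPP and PP differ by a hydroxyl group on the phenyl ring, and their arrays were compared with the error that the choice of the genes shares. THBS1 was higher with HPP than with PP by 0.63, 0.46, 0.85, 0.35 and 0.18 in replicates 1 to 5, a mean of 0.49 ± 0.259 (log2, SD over pairs). The fit without the block gave a 95% interval of -0.15 to 1.13 and limma's adjusted p was 1 over all genes. With the replicate block the interval was 0.29 to 0.69, not adjusted for the number of genes, and limma's adjusted p was 0.114, so THBS1 was not called in either fit. LOXL3 was higher with HPP by 0.36, 0.04, 0.27, 0.07 and 0.30, a mean of 0.21 ± 0.147. Its interval was 0.0029 to 0.41 without the block and 0.042 to 0.37 with it, with adjusted p-values from limma of 1 and 0.829. Among all genes limma called 0% without the block, where 184 had an unadjusted p under 0.05, and 0.0266% higher with HPP with it.

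Without PP replicate 3 the THBS1 difference of HPP from PP was 0.25, and without all 4 arrays of number 3 it was 0.40 (adjusted p = 0.302 with the block, an alternative added after the data were seen). For comparison, TIPARP, an AHR target that restrains the receptor, was the only gene of the lists described below that limma called between HPP and PP, and only with the block. Before adjustment, limma's p was below 0.05 for 6 of the 114 measured list genes in the plain fit (5.26%, against 1.63% of all genes). In the blocked fit this held for 15 (13.2%, against 5.27%). AHR reference genes were 2 of the 6 and 3 of the 15. The YAP and TAZ target AMOTL2, named after its values were seen, was higher with HPP by 0.35 (adjusted p = 0.171 with the block).

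THBS1 varied nearly as much with replicate number as with treatment. Over the 20 arrays, 51.1% of the sum of squares of THBS1 lay between treatments, 45.7% between replicate numbers and 3.22% in the remainder. The medians over all genes were 9.41%, 47% and 39.5%. For LOXL3 the shares were 68.1%, 16% and 15.8%. The SD of THBS1 over all arrays was 0.704, exceeded by 34 of 11282 genes, and that of LOXL3 was 0.249, exceeded by 2182 genes, with a median of 0.168. These are descriptions, since the treatment share follows from the choice of the genes.

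The replicate numbers were compared on the 10 HPP and PP arrays with limma's F statistic. It was 17.3 for THBS1 and 2.67 for LOXL3. THBS1 was chosen by a fit with the replicate block, which favours genes with a small remainder. A small remainder also raises this F, so these values are a description with no test. An adjusted p under 0.05 was reached by 9.48% of all genes on these 10 arrays, and by 46.5% in limma's F test over all 20 arrays. On the HPP and PP arrays without replicate 3, the F of THBS1 was 1.02. The THBS1 level of replicate 3 was below the mean of the other replicates by 1.38 with I3P, 0.77 with HPP, 1.21 with PP and 1.26 with DMSO. In the mean over the 4 groups it was at 8.12, against 9.23 to 9.35 in the other replicates. Only 33 genes were lower in number 3 by more than THBS1. LOXL3 went the other way, at 9.75 in replicate 3 against 9.45 to 9.57 in the others, and its array of replicate 3 was the highest of the group with I3P, HPP and PP but not with DMSO.

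Some marker levels also differed in replicate 3. The summed log2 level of 3 endothelial markers (VWF, KDR and TIE1) was 26.74 to 27.12 in its arrays and 24.71 to 26.47 in the others. In each group the highest KDR array was at 9.46 to 9.69, against group medians of 8.33 to 8.54. The highest VWF and TIE1 arrays lay closer to their medians. Group means of the 3 genes were 8.48 to 8.89, and no probe set of the series had a mean below 7.943. The level of each single marker in replicate 3 was not analysed here. PECAM1 and CDH5, the other 2 endothelial markers chosen, were not analysed here. The summed level of 6 glial and glioma markers was 62.50 to 63.18 in replicate 3 and 63.08 to 64.65 in the others. The other summed levels overlapped more widely. They were 41.81 to 43.46 in replicate 3 and 42.31 to 44.91 in the others for 5 fibroblast markers, and 24.68 to 25.35 against 24.24 to 25.98 for 3 blood and microglia markers. For 2 epithelial markers they were 17.14 to 17.66 in replicate 3 and 16.79 to 17.91 in the others. The part of these markers in the THBS1 level was not tested. All arrays are of the same cell line, so the sums are not a measure of other cell types. In bulk RNA fewer cells of a type and less RNA per cell cannot be told apart. Medians of the arrays over all genes were 9.27 to 9.28 in replicate 3 and 9.24 to 9.30 in the others.

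THBS1 and LOXL3 were closer to each other after the replicate numbers were levelled. Over the 20 arrays, Pearson's r between THBS1 and LOXL3 was 0.34, and after the mean of each replicate number was subtracted from its 4 arrays it was 0.87. The arrays share treatments and replicate numbers, and both genes were chosen for being high with I3P, so the second value follows in part from the choice. In the plot of deposited values the 4 arrays of replicate 3 stand to the left of the other arrays of their treatment.

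**Figure D3:**
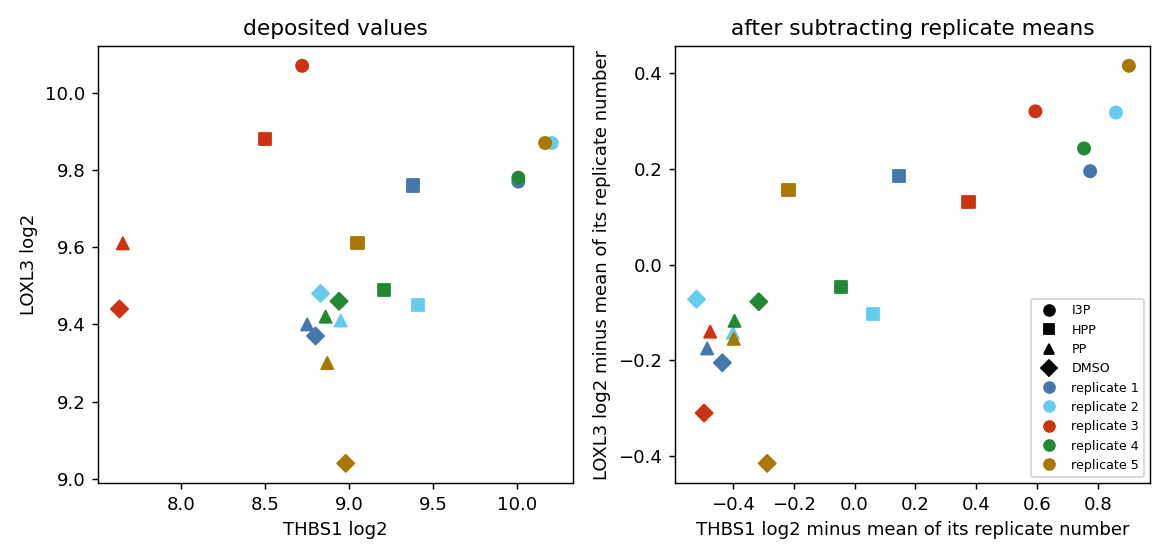
LOXL3 against THBS1 on the 20 arrays (log2), as deposited (left) and after the mean of each replicate number was subtracted (right); symbols show the treatment and colours the replicate number. Replicate 3 stands apart on the left panel (r = 0.34 over all arrays) and joins the other replicates on the right (r = 0.87).

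The genes most like THBS1 over the 20 arrays were STC2, a secreted glycoprotein (r = 0.94), TBC1D8 (0.91), ST8SIA5, a sialyltransferase (0.90), FAM114A1 (0.88) and IGFBP1, which binds insulin-like growth factors (0.88). The lowest correlations with THBS1 were those of TPM1, which encodes tropomyosin (-0.90), LINC00460 (-0.89) and FLOT1 (-0.86). The AHR target genes TIPARP and CYP1B1 were at only 0.41 and 0.38 over these arrays. After the replicate means were subtracted, the genes most like THBS1 were SLC16A6 (0.97), STC2 (0.97), TIPARP (0.97), CYP1B1 (0.96) and CDC42EP2 (0.96).

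The genes most like LOXL3 over the 20 arrays were CYP1B1 (r = 0.88), SECTM1 (0.86), AHRR (0.86), TIPARP (0.86) and SLC22A4 (0.82). The lowest were KLF3 (-0.81), ZBTB44 (-0.80) and MYBL1 (-0.79). After the subtraction the highest were SLC13A5 (0.91), SERPINB2 (0.90), IL1B (0.90), SLC22A4 (0.89) and SLC16A6 (0.89). THBS1 was then the gene of rank 16 for LOXL3, and LOXL3 that of rank 32 for THBS1. On the deposited values CYP1B1, AHRR and TIPARP were thus among the genes most like LOXL3. After the subtraction CYP1B1 was at rank 11 (0.87) and TIPARP at rank 24 (0.85) for LOXL3. For THBS1, TIPARP was then at rank 3 and CYP1B1 at rank 4. THBS1 and LOXL3 were chosen for being high with I3P, and TIPARP and CYP1B1 were also higher with I3P. These likenesses therefore follow in part from the choice. No test was made of these correlations.

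Few other genes of the lists passed between treatments, and most of those that did were AHR reference genes. The 12 lists of related genes held 139 genes besides THBS1 and LOXL3, of which 114 were measured. With I3P against DMSO, limma called 2 of the 114 higher (1.75%, against 0.0798% of all genes) and 0 lower without the block. An unadjusted p under 0.05 was found for 7 of the 114 (6.14%, against 4.51% of all genes) without the block and for 19 (16.7%, against 11%) with it. The 5 AHR reference genes gave 3 of these in each fit, so the share over the other lists was lower. The counts given for each list below are to be read against the shares of all genes. With the block limma called 3 higher (2.63%, against 0.488%) and 1 lower (0.877%, against 0.115%). The rises were TIPARP (log2 1.03) and CYP1B1 (0.79), an oxidase of steroids and aromatic hydrocarbons, in both fits, and AHRR, the repressor that AHR induces (0.71), with the block. All 3 belong to the AHR reference list. The matrix and signalling lists held no call without the block and only ID1 with it. The calls without the block depended on single arrays. When an array or all arrays of a replicate number were left out, TIPARP kept its call in 4 of 15 fits and CYP1B1 in 2 of 15, with differences of 0.97 to 1.13 and 0.70 to 0.87 and limma's adjusted p at up to 0.347. No list gene was called without any one of I3P replicates 1 to 4 or DMSO replicates 1, 2, 4 and 5, or without number 1, 2 or 4. The fall was ID1, an inhibitor of basic helix-loop-helix factors, which fell by 0.26 (adjusted p = 0.0299 with the block, 0.999 without it). The level of ID1 was 11.30 ± 0.294 in I3P arrays and 11.56 ± 0.257 in DMSO arrays (log2, SD, n = 5), and the groups overlapped.

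The closest relatives of each gene were not called in either fit of I3P against DMSO. In the thrombospondin family THBS2 was at 0.115 relative to DMSO, COMP at 0.094 and THBS3 at 0.063, with a smallest adjusted p of 0.757 with the block. In the lysyl oxidase family LOX was at 0.018, LOXL2 at 0.089, LOXL1 at -0.14 and LOXL4 at -0.196, with adjusted p-values with the block of 0.956, 0.644, 0.242 and 0.414. With the block 2 of these 4 genes had an unadjusted p under 0.05, against 11% of all genes. Of 11 measured receptors and binding partners of thrombospondin-1, 0 passed limma in either fit and 0 had an unadjusted p under 0.05. Among them were the proteoglycan SDC1 at -0.13 and the integrin subunit ITGAV at 0.11, and CD47 was at -0.0024. The median over these 11 genes was -0.0024, against -0.00011 over all genes.

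Of 15 measured genes for TGF-beta ligands, their latency proteins and receptors, 0 passed, with 3 at an unadjusted p under 0.05 with the block. SMAD3, which carries the TGF-beta signal, had a difference of 0.32 with an adjusted p of 0.0874 in the blocked fit. For the coreceptor TGFBR3 these were -0.23 and 0.188. Of 10 measured TGF-beta response genes, 5 were above and 5 below DMSO, with a median of -0.039, and ID1 was the one that passed. With the block 3 of them, ID1 included, had an unadjusted p under 0.05. Of 13 YAP and TAZ target genes, 9 were below DMSO, with a median of -0.092 and 0 passing, while 3 had an unadjusted p under 0.05 with the block. The connective tissue growth factor CCN2 had a difference of -0.24 with an adjusted p of 0.173 in the blocked fit, and ARHGAP29 one of -0.20.

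Of 18 collagen and elastic fibre genes, the substrates of lysyl oxidases among them, 14 were above DMSO with a median of 0.044 and 0 passed limma, with 1 at an unadjusted p under 0.05 with the block. Elastin (ELN) was at -0.22 and the fibrillin FBN2 at 0.20. Of 12 collagen maturation genes, 10 were above DMSO with a median of 0.05 and 0 passed, with 2 at an unadjusted p under 0.05 with the block. The prolyl hydroxylase P3H1 was at 0.24 and the collagen chaperone SERPINH1 at 0.197. Of 10 matricellular genes 0 passed against DMSO, with 3 at an unadjusted p under 0.05 with the block. Osteopontin (SPP1) fell by 0.28 with I3P against PP (adjusted p = 0.0134 with the block, 0.987 without it). Between I3P and PP limma called 2 list genes higher without the block (0.0798% of all genes) and 0 lower (0.00886%). There 7 had an unadjusted p under 0.05 (6.14%, against 5.07% of all genes). With the block limma called TIPARP, CYP1B1 and AHRR higher (0.674% of all genes) and SPP1 lower (0.23%). There 23 had an unadjusted p under 0.05 (20.2%, against 12.6% of all genes). AHR reference genes were 3 of the 7 and 3 of the 23. Against DMSO SPP1 was at -0.22 (adjusted p = 0.0829 with the block).

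Of 6 measured mesenchymal transition factors and cadherins, 0 passed and 0 had an unadjusted p under 0.05, with CDH1 at -0.106 and ZEB2 at 0.086. SNAI1 was not analysed here. Of 13 angiogenesis ligands and inhibitors, 9 were above DMSO with a median of 0.061 and 0 passed, with 1 at an unadjusted p under 0.05. That was VEGFA, the main growth factor of blood vessels, at 0.23 (adjusted p = 0.121 with the block). COL18A1 was at 0.155. With HPP against DMSO limma called 0 of the 114 genes without the block (0% of all genes), where 3 had an unadjusted p under 0.05 (2.63%, against 1.43% of all genes), and TIPARP with it (0.0443% of all genes higher). In that blocked fit 12 list genes had an unadjusted p under 0.05 (10.5%, against 4.97% of all genes). AHR reference genes were all 3 in the plain fit and 3 of the 12 in the blocked one. With PP against DMSO limma called 0% of all genes in both fits, so its 0 calls among the list genes say nothing about the lists. Unadjusted p-values under 0.05 were found for 2 list genes in the plain fit (1.75%, against 1.54% of all genes) and 7 in the blocked one (6.14%, against 4.25%). Between I3P and HPP limma called 0 list genes in the plain fit (0% of all genes). There 4 had an unadjusted p under 0.05 (3.51%, against 3.4% of all genes). In the blocked fit limma called TIPARP higher with I3P (0.0886% of all genes higher and 0.0266% lower). There 15 list genes had an unadjusted p under 0.05 (13.2%, against 9.74% of all genes). AHR reference genes were 2 of the 4 and 3 of the 15.

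**Figure D4:**
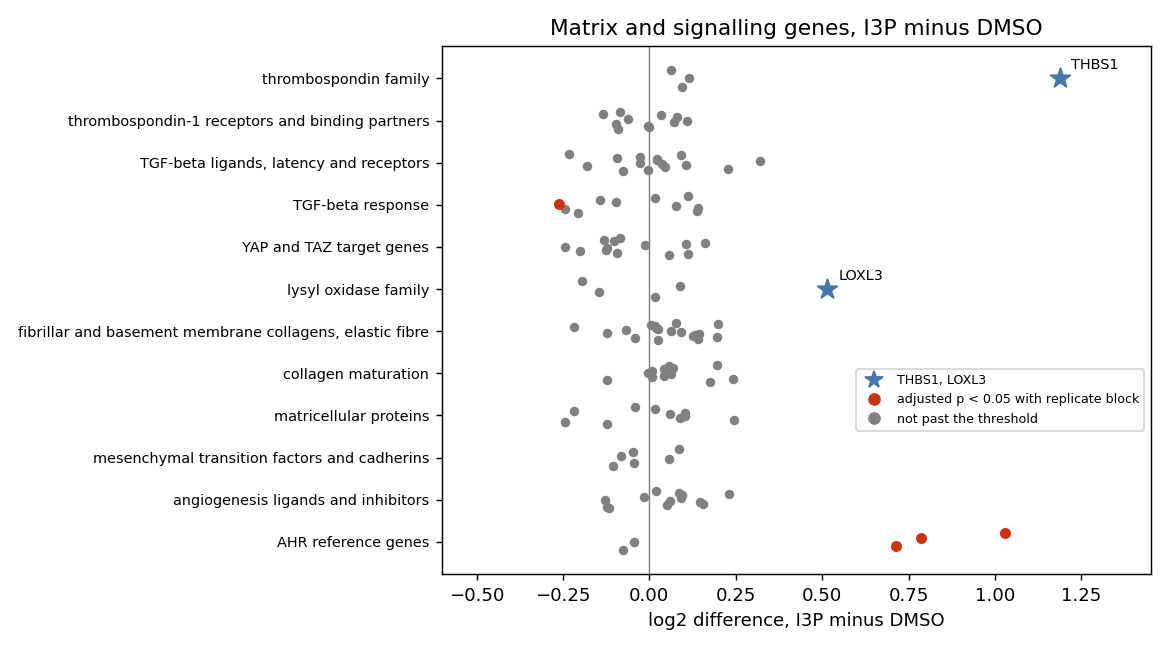
log2 differences of I3P minus DMSO for measured genes of the 12 lists, by list; red points passed limma with the replicate block, grey points did not, and blue stars mark THBS1 (1.19) and LOXL3 (0.51), which are shown without a test. Genes on several lists appear in each, and the red points are ID1 at -0.26 and TIPARP, CYP1B1 and AHRR at 0.71 to 1.03.

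Genes of the lists were also compared between replicate numbers. In the F test on the HPP and PP arrays limma called 31 of the 114 list genes (27.2%, against 9.48% of all genes), a count made after the data were seen. By sign alone, 9 of these were lower and 22 higher in replicate 3 than in the mean of the others, over the arrays of all treatments. The same split was not counted over all called genes, so it cannot be read as a trait of the lists. The F test asks for any difference among the 5 numbers, so a call is not a test of replicate 3. Some called genes, named after their values were seen, hardly differed there. Among them were COL5A1 (-0.016), ANGPTL4 (-0.028), SMAD7 (0.02) and CCN1 (0.065). The lysyl oxidase family divided. LOXL2 was lower in replicate 3 by 0.496 in log2 (adjusted p = 0.0336) and LOXL4 by 0.22 (adjusted p = 0.0136), while LOXL1 was higher by 0.42 (adjusted p = 0.0231) and LOX by 0.35 (adjusted p = 0.0462). These adjusted p-values are for a difference among all 5 numbers, by limma.

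Low in replicate 3 together with THBS1 were the collagen-modifying enzymes P4HA1 (-0.80) and PLOD2 (-0.53), the transcription factor BHLHE40 (-0.57) and the metalloprotease inhibitor TIMP3 (-0.56). High there were the collagen chain COL1A1 (0.70), LRRC32, which holds latent TGF-beta at the cell surface (0.70), and the matricellular periostin (POSTN, 0.50). TIPARP (0.41), CYP1B1 (0.36) and AHRR (0.51) were also higher in replicate 3, as LOXL3 was, and unlike THBS1. The list genes named here all passed the F test, and the choice of which to name followed their values. This does not cover LOXL3 and THBS1, whose F values are a description with no test.

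The cell line and the measurement set the limits of these values. Of 12 glial and glioma markers 6 were in the table, among them GFAP, NES, VIM and CD44, while SOX2, OLIG2, S100B and AQP4 were not analysed here. Markers of other cell types in the table were 3 of 6 for blood and microglia, 3 of 5 endothelial, 2 of 5 epithelial, 5 of 6 fibroblast and 0 of 5 platelet genes. Their summed levels overlapped between all 4 treatments, for example 25.31 to 27.12 with I3P, 24.88 to 26.74 with HPP, 25.58 to 26.97 with PP and 24.71 to 27.07 with DMSO for the endothelial markers. In RefSeq THBS1 overlaps THBS1-IT1 and FSIP1, and LOXL3 overlaps HTRA2 and DOK1. Which exons or transcripts the 2 probe sets read was not analysed here.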

How the data were processed

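RNA of U-87MG cells was measured on 20 arrays. The authors deposited log2 expression values made with oligo and RMA, per the submitters' processing notes (versions not given in the sources used here). RMA subtracts a modelled background, gives all arrays one distribution and combines the probes of a set, which can understate changes of dim genes. No probe set had a mean below 7.943, and array medians were 9.23 to 9.279. A filter on dim probe sets is not stated in the sources used here. Gene symbols came from GEO's platform annotation and were updated with RefSeq (GRCh38.p14, 833 updated, 33 without a match). The 629 probe sets with several symbols and the 825 with none were left out. A gene with several probe sets was represented by the brightest, giving 11282 genes.

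The 4 group means were fitted over all 20 arrays with limma 3.58.1 in R 4.3.3 (2-sided, Benjamini-Hochberg over all genes, threshold 0.05), and steps were tested on simulated data. Figures used matplotlib 3.10.9. The labels give replicate numbers 1 to 5. Deviations from group means correlated above 0.1 in all 30 same-number pairs (0.163 to 0.714, median 0.431). The 120 other pairs between groups had a median of -0.157 and ran from -0.396 to 0.378, so the ranges overlapped. On this basis the numbers were taken to pair the arrays. The labels say biological replicates without naming cultures, so p-values measure only the spread between these samples, which may be technical. No 2 arrays were identical. The genes and lists were chosen with earlier results of these data known. Named genes were THBS1 and LOXL3, called list members, otherwise the 2 per list with the largest I3P difference, the genes most like each by correlation, and others said to be named after their values were seen. The alternatives tried were a replicate block, fits on the 10 arrays compared, cyclic loess, equal array medians, genes above the 25th percentile, all probe sets and left-out arrays.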

Additional observations from a re-analysis of the deposited data

Results flagged for a closer look

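In THBS1 the array of replicate 3 stood apart from the other 4 of its group, by Dixon's gap test, with I3P (8.72), with PP (7.65) and with DMSO (7.63). The HPP array of replicate 3 was also the lowest of its group, at 8.50, but its gap was smaller. In LOXL3 the DMSO array of replicate 5 stood apart at 9.04. Chance flags about 1 in 20 groups in this test, and the 3 THBS1 arrays share a replicate number, so they are not independent. Without all arrays of number 3 the THBS1 difference was 1.21 for I3P minus DMSO, 0.38 for HPP minus DMSO and -0.026 for PP minus DMSO. Without DMSO replicate 5 the LOXL3 difference was 0.43 for I3P minus DMSO, 0.199 for HPP minus DMSO and -0.0082 for PP minus DMSO.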

How the results depend on the processing

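Of 418 alternative values, 394 were counted as the same, by rules that differed with the kind of value. For HPP minus PP and the F this meant no change of call. For the other differences of THBS1 and LOXL3 it meant a move below the within-group SD. Counts of called list genes had to be equal or close by ratio, and correlations were included. A change of sign could pass, as in PP minus DMSO for THBS1, which was above 0 in 6 of 15 fits with arrays left out. THBS1 with I3P minus DMSO was 1.18 to 1.19 under the other alternatives and 0.94 to 1.465 when arrays were left out, and LOXL3 was 0.51 and 0.43 to 0.56. For HPP minus PP, THBS1 was 0.25 to 0.65 when arrays were left out (limma's adjusted p 0.9997 to 1) and LOXL3 0.15 to 0.25. Over the other alternatives limma's adjusted p was 0.114 to 1 for THBS1 and 0.829 to 1 for LOXL3. Leaving out 1 array of number 3 unbalanced THBS1. HPP minus DMSO was 0.22 without DMSO replicate 3, and PP minus DMSO was 0.23 without PP replicate 3 and -0.27 without DMSO replicate 3. The F of the replicate number for THBS1, a description, was 1.02 to 30.5 when a number was left out. With the replicate block the list genes called were 4 for I3P minus DMSO, 1 for HPP minus DMSO, 1 for I3P minus HPP, 4 for I3P minus PP and 1 for HPP minus PP, against 2, 0, 0, 2 and 0 without it. With arrays left out they were 0 to 3 for I3P minus DMSO, where only 4 of 15 fits called any list gene, and 0 to 3 for I3P minus PP, where 11 of 15 did. With the block and number 3 left out, added after the data were seen, they were 3, 0, 0, 3 and 0. The block changed no call of THBS1 or LOXL3 between HPP and PP. The number of arrays and the signal of dim probe sets limit smaller differences.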
